A study of Saccharomyces cerevisiae with 83 samples.

Results

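The 140 mRNAs described here are budding yeast messages of intermediate length whose ribosome footprints were more abundant on ribosomes pulled down with Upf1 than on all ribosomes of the lysate. They were chosen by 4 values: an mRNA entry, an effective length of 1 to 2 kb, at least 50 counts per 1000000 counts of the column (CPM) in the total ribosomes of the Upf1-FLAG strain, and a pulled-down to total ratio of mean CPM of at least 1.6 in both the Upf1-FLAG strain and the strain labelled upf2Δ. Of the 6587 mRNA entries among 6952 transcripts, 2245 had that length and 834 of these also reached that level (the eligible mRNAs). The 140 members are 16.79% of the eligible mRNAs, 694 eligible mRNAs were not members, and 70 of those, called depleted here, had a ratio of 1/1.6 or less in both strains.

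Upf1 is an RNA helicase that joins Upf2 (gene NMD2) and Upf3 in nonsense-mediated mRNA decay, the pathway that degrades messages whose translation ends too early. Upf1 also associates with ribosomes on messages that are not known substrates of that pathway. In selective ribosome profiling, ribosomes that carry a tagged factor are pulled down, and their footprints, the mRNA stretches shielded from nuclease, are compared with those of all 80S ribosomes. A footprint count reports where ribosomes were and not how much protein was made.

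The data were 83 libraries from W303 cultures: 30 of RNA, 30 of footprints of total 80S ribosomes and 23 of footprints of 80S ribosomes pulled down (IP) with an anti-FLAG antibody. The C experiment had 3 lysates a strain, all with cycloheximide, an inhibitor of elongation. It held the wild type HFY114 with the empty plasmid pRS425 (WT-C), upf1::HIS3 with pRS425-UPF1-FLAG (Upf1-FLAG), upf1::HIS3 with pRS425-DE572AA-FLAG, which carries Upf1 changed at 2 neighbouring residues (DE572AA-FLAG), and nmd2::HIS3 upf1::URA3 with pRS425-UPF1-FLAG (labelled upf2Δ). The N experiment had 2 lysates a group, with and without 100 µg/ml cycloheximide. It held the wild type with YEplac112 (WT-N), upf1::HIS3 with pG1-FLAG-UPF1 (FLAG-Upf1), nmd2::HIS3 with YEplac112-FLAG-UPF2 (FLAG-Upf2) and upf3::HIS3 with YEplac195-TPI-FLAG-UPF3 (FLAG-Upf3). A further strain, measured with cycloheximide only, was upf1::HIS3 with pG1-FLAG-UPF1, pRS425-UPF2 and YEplac195-TPI-UPF3 (the 3-plasmid strain). Wild-type strains had no IP, and an IP from untagged cells was not analysed here, so enrichment through a Upf protein and enrichment through the antibody alone cannot be told apart.

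The plasmids raised the messages they carry. UPF1 RNA was 376 to 395 CPM in WT-C and 10843 to 23878 CPM in the 3 tagged C strains. NMD2 RNA was higher, 1164 to 1194 CPM, in the strain labelled upf2Δ than in WT-C, at 185 to 209 CPM, which goes against that label if the whole gene had been removed; how much of NMD2 the nmd2::HIS3 allele leaves is not given in the sources used here. This strain and FLAG-Upf2 also differed from all others in mating-type genes: the α-factor gene MF(ALPHA)1 was at 497 to 766 CPM of RNA there and below 1 CPM elsewhere. Total expected counts ran from 49079265 to 164141441 in RNA libraries, from 107334 to 3020880 in total 80S and from 66971 to 1470361 in IP columns of the length classes that were compared (27 to 32 nt with cycloheximide, 20 to 32 nt without). The IP columns of 37 to 43 nt, used near the end, held 32434 to 415191. The median member had 192 to 267 counts in each DE572AA-FLAG IP library, 54 to 67 in each FLAG-Upf1 IP with cycloheximide and 15 to 18 in each IP of the 3-plasmid strain.

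Most members lay not far above the threshold, and a few lay very far above it. In the strains that chose them the median ratio was 1.93 (Upf1-FLAG) and 1.99 (labelled upf2Δ), against 1.07 and 1.05 among eligible non-members. The lower of the 2 ratios was at least 2 for 46 members, at least 2.5 for 6, at least 3 for 5, at least 4 for 3 and at least 10 for 2. The members just inside the threshold were TOM71, a mitochondrial import receptor, at 1.607, VMA2, a subunit of the vacuolar proton pump, at 1.605, and TDH2, a glyceraldehyde-3-phosphate dehydrogenase, at 1.601. Just outside were YDR341C at 1.597, RPC82 at 1.595 and LYP1 at 1.594. These values are close enough that membership at the edge was decided by small differences: leaving out 1 lysate of either strain gave 125 to 151 members, of which 120 to 140 were among the 140. With TMM scaling factors applied to the CPM of the rule there were 90 members, 87 of them among the 140.

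Outside the ratio, the members resembled other eligible mRNAs in several respects. Their median effective length was 1508.51 nt against 1430.51 nt in eligible non-members. In WT-C their median RNA level was 104 FPKM (fragments scaled to length and depth) against 107 FPKM, and their median total 80S level was 56.0 FPKM against 72.1 FPKM. The ratio of footprint to RNA FPKM, the translational efficiency (TE), had a median of 0.669 in members, 0.756 in eligible non-members and 0.738 in depleted mRNAs, with quartiles of 0.457 and 0.853 in members. These distributions overlapped through most of their width, and no test was made between lists. Members lay on many chromosomes, with 5 pairs of adjacent genes (ENP1 and HIS7, SSB1 and HO, PAN5 and SSZ1, LCB1 and PRC1, ARP7 and GLN1).

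The members make enzymes, complex subunits and signalling proteins. By lists of gene function, 53 members fell in a list and 87 in none. Enzymes of amino acid biosynthesis were the largest listed group, with 17 members of 47 eligible genes (36.17%) and 1 depleted gene. Redox, iron-sulfur and stress defence genes had 5 members of 14 (35.71%: TRR1, FTR1, CCP1, ZWF1, GLR1) and 2 depleted genes. Cytoskeleton and septin genes had 5 of 15 (33.33%: the actin-related ARP2 and ARP3, the tubulins TUB1 and TUB3, the septin CDC12) and 1 depleted. Nucleotide biosynthesis had 4 of 16 (25%: IMD2, RNR2, ADE13, GUA1) and 0 depleted. Chaperones had 4 of 20 (SSB1, SSZ1, CCT6, CCT8) with 3 depleted, vesicle and vacuole genes 3 of 12 (VMA2, VMA6, PRC1), and genes of translocation and glycosylation in the endoplasmic reticulum 3 of 16 (SSH1, OST1, ROT1).

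Other lists held few or no members, and the lists do not hold every gene of a function. For example, the small-subunit processome gene UTP18 and the lipid synthesis gene CDS1 are members that fell in no list. Ribosome biogenesis had 3 members of 23 (ENP1, SOF1, RRP9) and 6 depleted, respiration and the citric acid cycle 2 of 23 (LSC2, QCR2), lipid synthesis 2 of 22 (AUR1, LCB1), and glycolysis 1 of 17 (TDH2). Amino acid permeases had BAP3 of 15, aminoacyl-tRNA synthetases FRS1 of 10, the proteasome RPN7 of 14, and factors of decapping and nonsense-mediated decay EDC3 of 5. No member came from 15 eligible translation factors, 24 cell wall genes, 5 sugar transporters or the 1 eligible gene known as a substrate of nonsense-mediated decay. Of the translation factors 3 were depleted and of the cell wall genes 4. Respiration, lipid synthesis and the proteasome had 1 depleted gene each. Since the choice of members used these same ratios, the shares describe the group and were not tested.

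**Figure D1:**
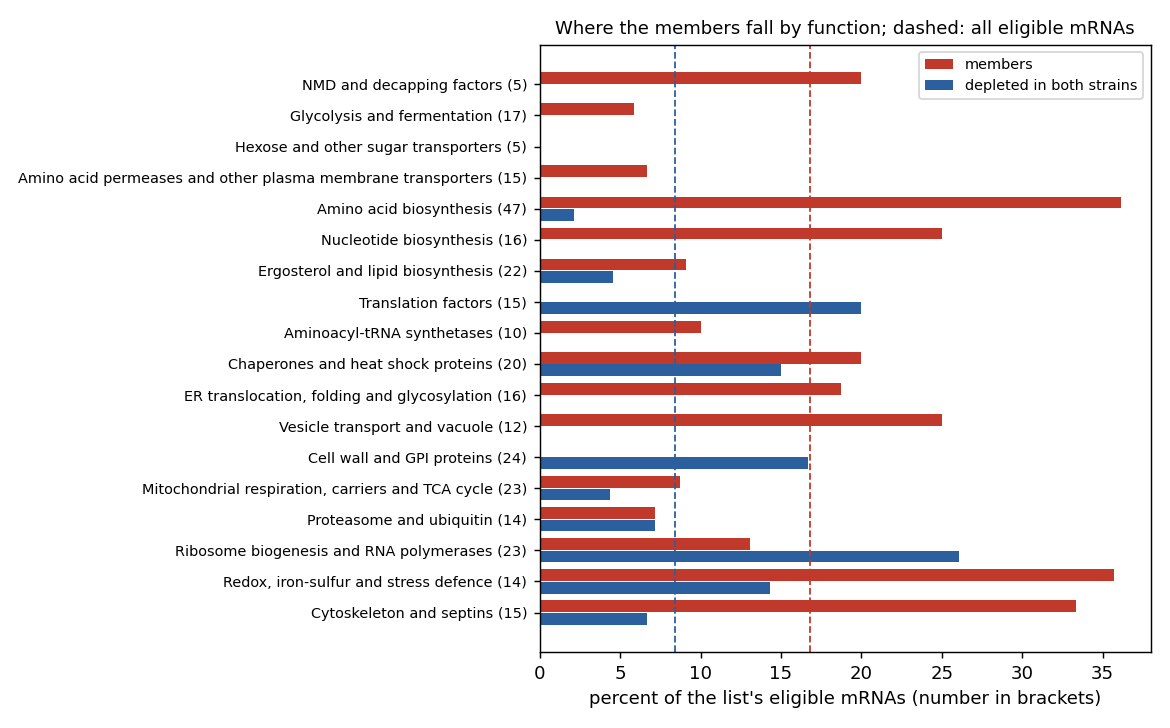
Share of the eligible mRNAs of each functional list that are members, and share that are depleted (horizontal axis, percent); dashed lines mark the shares over all eligible mRNAs, 16.79% and 8.393%. Amino acid biosynthesis stands at 36.17% with 17 members, and translation factors, cell wall genes and sugar transporters have no member.

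Some members belong to the same protein complex or pathway step, as read off the list with no test. They include both actin-related subunits of the Arp2/3 complex that are named for it (ARP2, ARP3), 2 subunits of the cytosolic chaperonin (CCT6, CCT8), the ribosome-bound chaperones SSB1 and SSZ1, the vesicle proteins ERV41 and ERV46, the mannosyltransferase subunits MNN10 and MNN11, the casein kinase 2 subunits CKA1 and CKA2, and the Paf1 complex subunits PAF1 and RTF1. Several members have a close paralogue whose reads may be shared in counting: ASN1 with ASN2, SAM1 with SAM2, BAT1 with BAT2, TUB1 with TUB3, PTC2 with PTC3, TDH2 with other TDH genes, SSB1 with SSB2 and IMD2 with other IMD genes. The values of these genes are uncertain to that extent.

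The DE572AA-FLAG strain was not used to choose the members, and nearly all members were again more abundant on the pulled-down ribosomes. The fitted log2 ratio of IP to total was above 0 for all 140 members, between 0.10 and 7.09, with a median of 0.66. Among eligible non-members the median was -0.06, and over all 5050 mRNA and other entries tested it was -0.00. By edgeR's quasi-likelihood test with Benjamini-Hochberg adjustment over all entries (adjusted p below 0.05, here and below), 126 members were higher in the IP and 0 were lower, that is 90% of them, where 17% of all entries were higher and 20% lower. Of 694 eligible non-members 84 were higher and 200 lower. All IP libraries lay above all total libraries for 138 of the 140 members (98.6%) and for 254 of the eligible non-members (36.6%), and the ratio of mean CPM was at least 1.6 for 109.

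The library shares show the same on the scale of whole columns. Members made up 3.21% ± 0.0706 (SD, n = 3) of total 80S counts in DE572AA-FLAG and 6.99% ± 0.313 (SD, n = 3) of its IP counts. Without the leading pair FET4 and RTF1 the IP share was 5.97% ± 0.228. In WT-C members held 3.18% ± 0.156 (SD, n = 3) of total 80S counts. The lysates with the DE572AA protein and those of WT-C therefore overlapped in the members' share of all ribosomes, while the IP share lay apart. In the N experiment members held more of total 80S, with 4.83% and 5.17% in the WT-N libraries with cycloheximide. The tagged N strains with cycloheximide had mean shares of 4.29% to 4.99% in total 80S and 7.11% to 8.69% in the IP. The members' share of total 80S was thus lower in the C experiment, and its part in the larger C ratios was not tested.

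**Figure D2:**
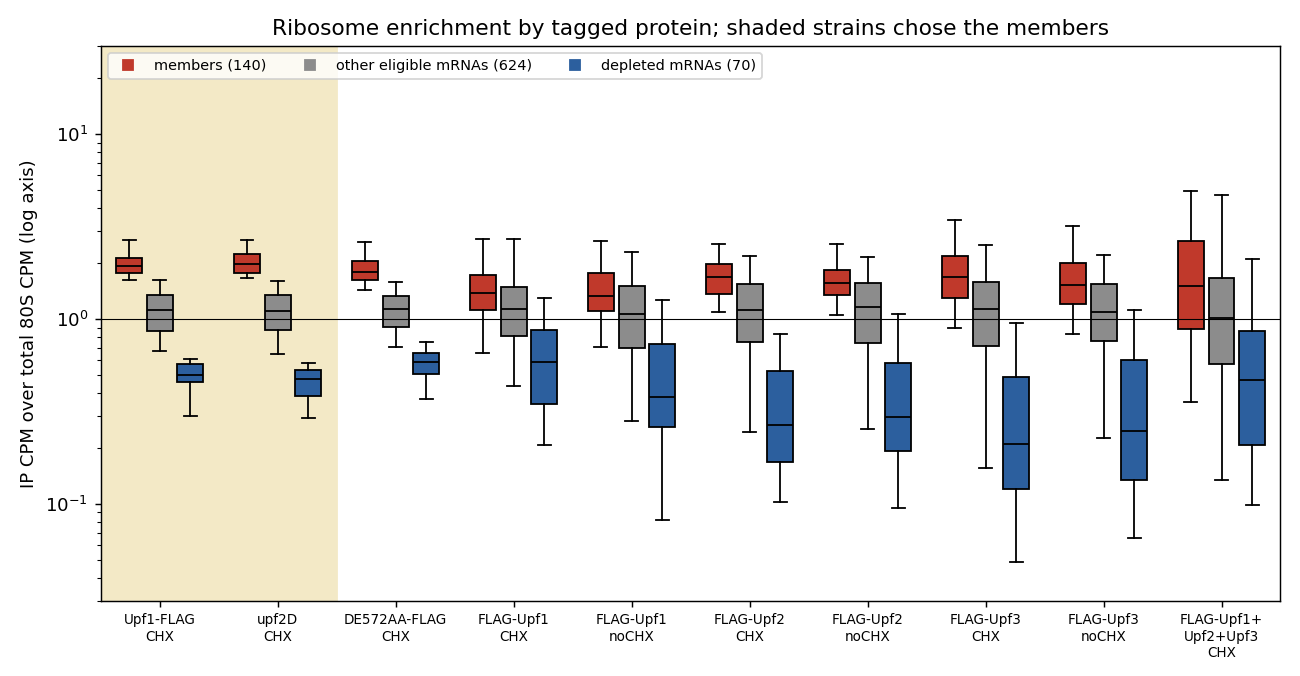
Ratio of IP to total CPM (vertical axis, log scale) in each of 10 IPs for members, other eligible mRNAs and depleted mRNAs; boxes show quartiles, whiskers the 5th to 95th percentiles, ratios of 0 are not drawn, and shading marks the strains that chose the members. The other eligible mRNAs here leave out the depleted ones. In the shaded strains the choice itself set members above depleted mRNAs. The members' median is above that of the depleted mRNAs in each unshaded IP too. It is 1.79 against 0.589 in DE572AA-FLAG and 1.38 against 0.588 in FLAG-Upf1 with cycloheximide. All eligible non-members, depleted ones included, have medians of 1.09 and 1.08 in these IPs.

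FET4, which encodes the low-affinity iron transporter of the plasma membrane (YMR319C, chromosome XIII, 912880 to 914538 in R64), was far above every other member. In DE572AA-FLAG it had 9290, 7513 and 7816 CPM in the IP libraries and 58.7, 57.8 and 43.1 CPM in total 80S. The lowest IP library thus lay far above the highest total library, with a fitted log2 ratio of 7.09 (SE 0.17, adjusted p = 3.9e-29). The strains that chose it had the same picture, with 7102 to 9279 CPM (Upf1-FLAG) and 8039 to 8326 CPM (labelled upf2Δ) in the IPs. Total 80S in WT-C held 46.8, 44.8 and 80.4 CPM, within the range seen across the tagged strains. In the N experiment the IP levels were lower: 1100 and 2178 CPM in the FLAG-Upf1 IP against 144 and 62.6 CPM in total, 1866 and 1664 against 69.9 and 70.4 in FLAG-Upf2, and 1070 and 1337 against 49.9 and 45.0 in FLAG-Upf3, all with cycloheximide. The 3-plasmid strain had 4390 and 4859 CPM against 54.3 and 83.9. FET4 was higher in the IP in all 7 comparisons of the N experiment, with fitted log2 ratios of 4.07 to 6.14.

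RTF1, a subunit of the Paf1 complex that travels with RNA polymerase II (YGL244W, chromosome VII, 41498 to 43174), was next. DE572AA-FLAG had 2446, 1746 and 1848 CPM in the IP and 99.6, 72.5 and 77.7 CPM in total 80S, a log2 ratio of 4.42 (SE 0.15, adjusted p = 9.95e-25). The groups lay more than 10 times apart. In the N experiment RTF1 was also higher in all 7 comparisons, with log2 ratios of 2.13 to 3.77. These calls were less stable than those of FET4: RTF1 was not called in FLAG-Upf1 with cycloheximide without the first IP library (adjusted p = 0.0608) or the second total library (0.174), in FLAG-Upf3 with cycloheximide without the first total library (0.0856), or in FLAG-Upf3 without cycloheximide when the second total library was left out (0.0897). Calls of RTF1 with a library left out were not recorded for the 3-plasmid strain. With the compared groups alone in the model, FET4 was the 1 member called in the 3-plasmid strain. PAF1, its partner in the complex, had 94.4, 86.0 and 98.5 CPM in the DE572AA-FLAG IP against 55.6, 60.2 and 62.1 CPM in total.

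ARO8, an aromatic aminotransferase of amino acid metabolism (YGL202W, chromosome VII, 116059 to 117561), was enriched at a much higher footprint level. It had 3906, 2947 and 3653 CPM in the DE572AA-FLAG IP and 613, 692 and 670 CPM in total, a log2 ratio of 2.23 (SE 0.14). It completes the set of 3 members that were higher in the IP in all 7 comparisons of the N experiment, at log2 ratios of 1.23 to 1.82. ARO8 was not called in FLAG-Upf1 with cycloheximide without the first IP library (adjusted p = 0.0889), nor in the 3-plasmid strain with the compared groups alone in the model. For FLAG-Upf3 and the 3-plasmid strain, its calls with a library left out were not recorded.

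ENP1, a factor of small ribosomal subunit assembly (YBR247C, chromosome II, 713004 to 714455), and MSS116, a mitochondrial RNA helicase of the DEAD-box family (YDR194C, chromosome IV, 845952 to 847946), were enriched by similar amounts with Upf1 DE572AA. ENP1 had 294, 258 and 301 CPM in the IP against 60.2, 46.1 and 43.1 in total, with a log2 ratio of 2.34 (SE 0.15). MSS116 had 574, 452 and 510 CPM against 89.6, 111 and 98.6, with a log2 ratio of 2.17 (SE 0.15). The groups did not overlap for either gene. In the N experiment ENP1 was called in 1 comparison only, FLAG-Upf3 with cycloheximide (log2 ratio 1.82, adjusted p = 0.0464), and MSS116 in none, with log2 ratios of -0.07 to 1.58. Whether these genes differ between the C and N experiments was not tested. The tag position, the plasmids and the kit for removing ribosomal RNA changed together and cannot be told apart. The gene next to ENP1, HIS7 of histidine synthesis, had 202, 166 and 203 CPM in the DE572AA-FLAG IP against 120, 125 and 127 in total.

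**Figure D3:**
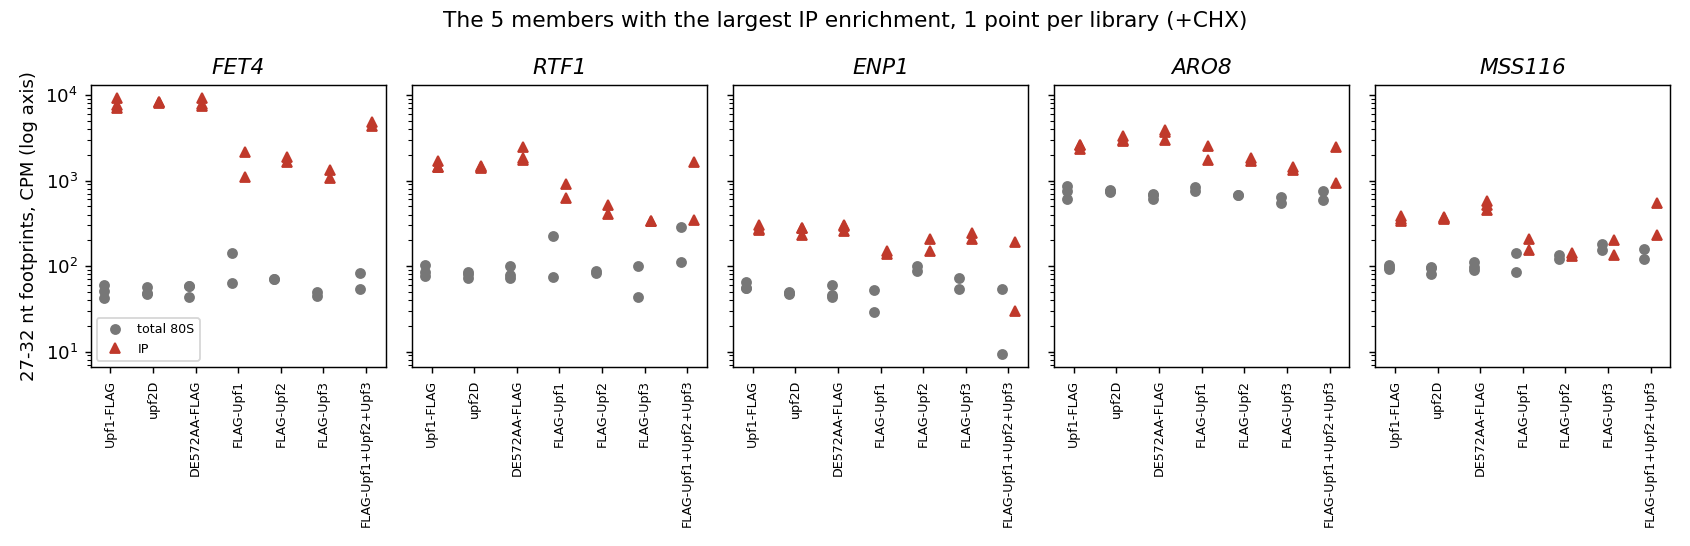
CPM of FET4, RTF1, ENP1, ARO8 and MSS116 in each IP and total 80S library with cycloheximide of the tagged strains (vertical axis, log scale), with triangles for IP and circles for total 80S. The IP points of FET4 lie above 1000 CPM in every strain while its total points stay at 144 CPM or below, and MSS116 is set apart from total in the C strains.

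After these 5 genes the DE572AA-FLAG ratios formed a continuous range. GET4, a factor for tail-anchored membrane proteins, had 224, 188 and 204 CPM in the IP and 83.4, 69.5 and 74.5 CPM in total (log2 ratio 1.26). RVB1, an ATPase of chromatin remodelling complexes, and SAM1, an S-adenosylmethionine synthetase, both stood at 1.20. GPI16, a subunit of the enzyme that attaches glycolipid anchors, was at 1.19 and SSH1, a pore protein of the endoplasmic reticulum, at 1.15. These sizes are about 1 unit of log2 below ENP1, ARO8 and MSS116.

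The 5 members with the smallest values in DE572AA-FLAG were not called. CDC1 was at 0.32, RSC8, a subunit of the RSC chromatin remodeller, at 0.31, the HO endonuclease gene at 0.30, PAN5, an enzyme of pantothenate synthesis, at 0.27 and UTP18, a small-subunit processome protein, at 0.10. UTP18 had 70.5, 57.8 and 71.3 CPM in the IP against 54.8, 57.2 and 50.9 in total, ranges that nearly met. The remaining uncalled members were ALE1, CDS1, DCS1, DFG5, ERC1, FTR1, GUP1, PRP19 and YBR287W.

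Among the members with the most footprints in WT-C the ratios were moderate and precise. SSB1, an Hsp70 chaperone bound to ribosomes, had 7168, 6487 and 6562 CPM in the DE572AA-FLAG IP against 4417, 4331 and 4057 in total (log2 ratio 0.48). TDH2 had 5213, 4982 and 5245 CPM against 3467, 3457 and 3425 (0.40), and VMA2 1219, 1352 and 1286 against 729, 792 and 805 (0.55). The asparagine synthetases ASN1 and ASN2 stood at 0.76 and 0.83. For each of these genes all IP libraries were above all total libraries.

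All 17 amino acid biosynthesis members were called higher in DE572AA-FLAG, a share near the 90% of all members, where 17% of all entries were higher. They were TYR1, HIS7, SHM1, ARO3, SAM2, ARO8, ASN2, THR1, BAT1, LYS12, HOM6, BAT2, TRP3, SAM1, GDH1, GLN1 and ASN1. Their log2 ratios ran from 0.41 to 2.23 with a median of 0.76. Over all 74 tested genes of the list, members or not, 29 were higher and 9 lower. Of the 53 members in any list, 52 were higher, and FTR1, the permease of high-affinity iron uptake, was the exception at 0.71 (SE 0.43, adjusted p = 0.216). FTR1 had 168, 183 and 127 CPM in the IP and 98.1, 108 and 54.9 CPM in total, so its libraries did not overlap either.

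The N experiment asked the question for each Upf protein with a tag at the other end, at lower depth and with 2 lysates a group. With FLAG-Upf1 and cycloheximide the members' median log2 ratio was 0.48, against 0.12 in eligible non-members, and 124 of 140 were above 0. Only FET4, RTF1 and ARO8 were called higher and 0 lower, or 2.14%, where 0.524% of all entries were higher and 1.7% lower. Without cycloheximide the median was 0.43 against 0.01, and 5 members were higher and 0 lower: the 3 named genes, RNR2, a subunit of ribonucleotide reductase (1.10), and TDH2 (0.75), with 0.655% and 2.62% of all entries higher and lower. Both IP libraries lay above both total libraries for 76 members (54.3%) with cycloheximide and 62 (44.3%) without, against 25.9% and 25.2% of eligible non-members. Both lay below for 8 and 2 members. Leaving out 1 of the libraries at a time gave 1 to 3 called members with cycloheximide and 3 to 4 without.

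FLAG-Upf2 and FLAG-Upf3 had higher medians and more calls. With FLAG-Upf2 and cycloheximide the median log2 ratio was 0.76, against 0.06 in eligible non-members, 136 members were above 0, and 14 were higher and 0 lower, where 1.92% of all entries were higher and 7.75% lower. The 14 were FET4, RTF1, ARO8, VMA6, HOM6, AAT2, ASN2, THR1, VMA2, RNR2, ZWF1, ASN1, GDH1 and SSZ1. HOM6, homoserine dehydrogenase, had 835 and 914 CPM in that IP against 448 and 357 in total. Without cycloheximide the median was 0.64 against 0.13, and 10 members were higher and 0 lower, among them SSH1 (1.28) and the chaperonin subunit CCT8 (1.14), with 1.55% and 7.23% of all entries. Leaving out 1 library at a time lowered the 14 to between 5 and 7 and gave 4 to 11 in place of the 10.

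With FLAG-Upf3 and cycloheximide the median was 0.75 against 0.09, and 20 members were higher and 0 lower, where 2.56% of all entries were higher and 9.24% lower. They included TCD2, a tRNA-modifying enzyme (2.42), SOF1, a small-subunit processome protein (2.25), ENP1 (1.82), the cyclin gene CLN2, RPN7 of the proteasome and GDH1, a glutamate dehydrogenase. GDH1 had 2428 and 2671 CPM in the IP against 842 and 1047 in total, and its IP libraries were the higher ones. Without cycloheximide the median was 0.57 against 0.00, and 12 members were higher and 0 lower, among them HOG1 (1.62), LYS12 of lysine synthesis (1.45) and SSH1 (1.30), with 1.27% and 7.93% of all entries. These counts fell to between 7 and 10 and between 3 and 6 when 1 library was left out. Both IP libraries lay above both total libraries for 123 members (87.9%) with FLAG-Upf2 and 110 (78.6%) with FLAG-Upf3 and cycloheximide, against 39.2% and 36.5% of eligible non-members. Without cycloheximide they did so for 119 (85%) and 92 (65.7%), against 43.5% and 31.0%.

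The calls in these strains depended on which libraries shared an estimate of spread. When the model held the 2 compared groups alone, 93 members were higher and 1 lower with FLAG-Upf2 and cycloheximide (19.5% of all entries higher) and 69 and 0 without it (14.1%). With FLAG-Upf3 the counts were 52 higher and 1 lower (11.5%) and 35 and 1 (6.86%). FLAG-Upf1 had 4 and 0 with cycloheximide (0.8%) and 3 and 0 without (0.465%), and the 3-plasmid strain 1 and 0 (0.194%). A direct test of the difference between strains with cycloheximide called no member: FLAG-Upf2 against FLAG-Upf1 had 0 higher and 0 lower members (0% and 0% of all entries), where the unadjusted p was under 0.05 for 1 higher and 1 lower member, and FLAG-Upf3 against FLAG-Upf1 had 0 and 0 (0% and 0.677%), where it was under 0.05 for 6 and 0. The larger number of calls with FLAG-Upf2 and FLAG-Upf3 is therefore not shown to be a difference in enrichment. Their libraries were also deeper for the members, with medians of 138 to 191 counts (FLAG-Upf2 IP) and 88.5 to 153 (FLAG-Upf3 IP) against 54 to 67 (FLAG-Upf1 IP); the part of depth in the calls was not tested.

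The 3-plasmid strain, in which Upf1 alone carries the tag per the labels, had the shallowest columns. The median log2 ratio was 0.64 against -0.17 in eligible non-members, and 100 members were above 0. It had 25 members higher and 4 lower (ARP7, PRP19, RAX1, SRP72), where 6.4% of all entries were higher and 7.4% lower. Both IP libraries lay above both total libraries for 51 members (36.4%) and below for 12, against 15.9% and 25.9% of eligible non-members. With a median of 15 to 27 counts in total 80S, single ratios there are imprecise: SAM1 had 2824 and 2069 CPM in the IP against 1290 and 1279, while RTF1, although called, had 343 and 1641 CPM against 290 and 112. ERV41, PAN5, RSC8 and CDC1 were, with FET4, the members with the largest fitted ratios there, had few or no counts in total 80S, and no fold is given for them.

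Outside the first 3, the members called most often across the 7 N comparisons were 3 genes of amino acid synthesis, RNR2 and CCT8. ASN1, ASN2 and RNR2 were called in 5 each, and GDH1 and CCT8 in 4 each. ASN1 had 2585 and 2642 CPM in the FLAG-Upf2 IP against 1311 and 1388 in total, and 1382 and 1736 against 1305 and 1234 with FLAG-Upf1. The FLAG-Upf1 ranges were close to each other and the FLAG-Upf2 ranges were not, but the test of the difference called no member. Of the 17 amino acid biosynthesis members, 6 were called with FLAG-Upf2, 6 with FLAG-Upf3 and 1 with FLAG-Upf1, all with cycloheximide. Over all 140 members these shares were 10%, 14.3% and 2.14%, and over all entries 1.92%, 2.56% and 0.524%.

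The order of the members by ratio was shared less between IPs than the order of all eligible mRNAs. Across genes, Spearman's rho of the IP to total ratio between DE572AA-FLAG and FLAG-Upf2 was 0.143 over 140 members and 0.647 over 833 eligible mRNAs. Between FLAG-Upf2 and FLAG-Upf3 it was 0.591 and 0.80, and between FLAG-Upf1 and FLAG-Upf2 0.308 and 0.613, all with cycloheximide. Members span a narrower range of ratios by their choice, genes are not independent, and the values are descriptions.

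Footprints of 37 to 43 nt, longer than the standard 27 to 32 nt, were deposited as a class of their own for 4 IPs, and members were less abundant in it than in the standard class. In FLAG-Upf1, which did not choose the members, the median ratio of long to standard CPM was 0.610 in members, 0.909 in eligible non-members and 2.90 in depleted mRNAs. The ratio was below 1 for 112 of the 140 members. In the 3-plasmid strain the medians were 0.356, 0.914 and 2.90, with 104 members below 1. The members' share was also lower in the long class of total 80S, in small columns of 10446 to 21461 counts. In total 80S of FLAG-Upf1 they held 2.75% and 3.01% of long against 4.90% and 4.83% of standard counts. In total 80S of the 3-plasmid strain they held 2.32% and 1.94% against 4.57% and 4.01%. However, 1 transcript made up 22.2% and 30.9% of these long columns in FLAG-Upf1, and 51.8% and 47.4% in the 3-plasmid strain. The largest transcript of the standard columns made up 2.60% to 3.19%. A transcript that large lowers the share of all others, and its part in the members' lower share was not tested. In the strains that chose the members, whose standard class entered the choice, the medians were 0.549 (Upf1-FLAG) and 0.554 (labelled upf2Δ).

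Few single members passed the test of this difference. In the FLAG-Upf1 IP 0 members were higher and 2 lower of 138 tested, where 0.115% of all entries were higher and 0.384% lower. FET4 had 202 to 374 CPM in the long class and 1100 to 2178 in the standard class (log2 ratio -2.69, SE 0.49, adjusted p = 0.0324), and TDH2 had 1240 to 1590 against 4242 to 5199 (log2 ratio -1.93, SE 0.34, adjusted p = 0.0297). Neither gene's classes overlapped. With only the 2 classes of this strain in the model, 0 members were higher and 69 lower of 140, where 14.9% of all entries were lower. That model had a fitted median of -0.96 in members. In the main model the fitted median was -0.87 in members, -0.27 in eligible non-members and 1.45 in depleted mRNAs. In the C strains the long class of FET4 stayed at 167 to 307 CPM while the standard class of the same IPs held 7102 CPM or more.

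**Figure D4:**
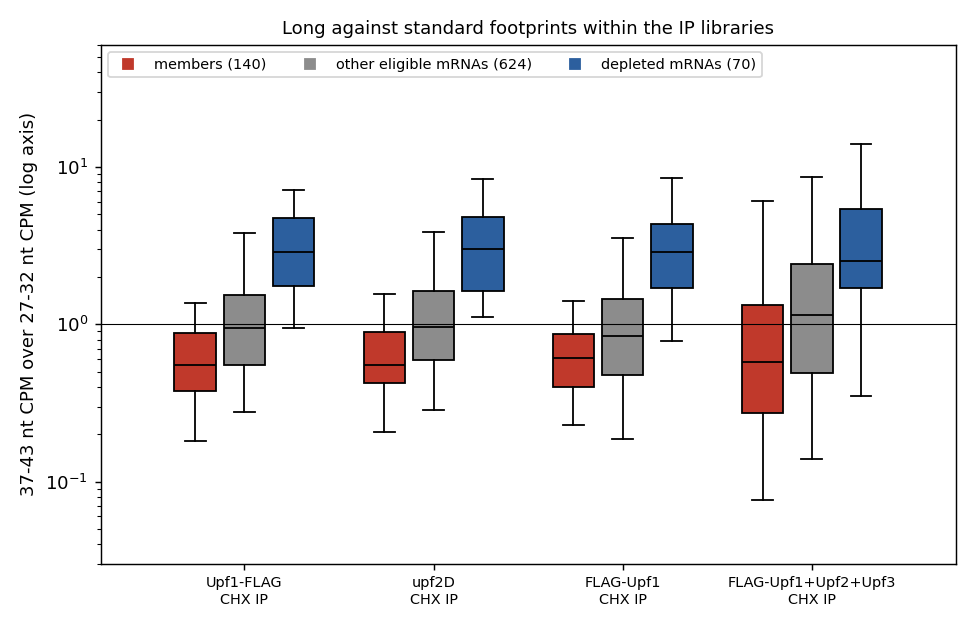
Ratio of 37-43 nt to 27-32 nt CPM in the IPs of 4 strains (vertical axis, log scale) for members, other eligible mRNAs and depleted mRNAs; boxes show quartiles, whiskers the 5th to 95th percentiles, and ratios of 0 are not drawn, which raises the members' box in the 3-plasmid strain. The other eligible mRNAs leave out the depleted ones. In the first 3 strains the members' medians lie between 0.549 and 0.610 and those of depleted mRNAs at 2.88 or above. In Upf1-FLAG and the strain labelled upf2Δ the standard class entered the choice of both groups, so their gap is partly built in. FLAG-Upf1 did not enter the choice, and its medians are 0.610 and 2.90.

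RNA levels of the members changed in the mutant strains about as those of other eligible mRNAs did. In DE572AA-FLAG against WT-C, 17 members were higher and 75 lower (12.1% and 53.6%), where 26.3% of all entries were higher and 27.6% lower. Eligible non-members gave 13.8% and 53.7%, shares close to the members' own. The median log2 change was -0.20 in members, -0.19 in eligible non-members and -0.00 over all entries. In the strain labelled upf2Δ 14 were higher and 67 lower (26% and 27.9% of all entries), with a median of -0.17 in both groups. In Upf1-FLAG 18 were higher and 33 lower (17.5% and 12.8% of all entries), with a median of -0.08 against -0.06; without the first WT-C library the 51 calls became 30, and without the third 33. These comparisons share the 3 WT-C libraries. In bulk cultures fewer cells of a type and less RNA per cell cannot be told apart.

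The RNA of FET4 and RTF1, the most enriched members, was not called in the C strains. FET4 RNA was 215, 192 and 198 CPM in WT-C and 218, 195 and 210 CPM in DE572AA-FLAG (fitted log2 change -0.07, adjusted p = 0.346). RTF1 was 86.9, 86.7 and 86.4 CPM in WT-C and 94.7, 78.5 and 94.1 CPM in DE572AA-FLAG (fitted log2 change -0.08, adjusted p = 0.477). The strains overlapped for both genes. The fitted changes include TMM scaling between libraries and the CPM do not, and for both genes the mean CPM was slightly higher in DE572AA-FLAG while the fitted change was below 0, so neither gene has a direction. ENP1 was lower in DE572AA-FLAG (-0.34) and ARO8 too (-0.22), both with small changes, and MSS116 was at 0.01.

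Among members that rose in RNA were enzymes of branched-chain amino acid and nitrogen metabolism. BAT1, the mitochondrial branched-chain aminotransferase, rose from 269, 271 and 273 CPM in WT-C to 474, 468 and 511 CPM in DE572AA-FLAG, a log2 change of 0.72 (SE 0.05, adjusted p = 7.96e-08). GDH1 (0.50), the acetyl-CoA hydrolase ACH1 (0.52) and the decarboxylase ARO10 (0.46) rose there too. CAR2, an enzyme of arginine breakdown, rose in Upf1-FLAG (1.05) and in the strain labelled upf2Δ (0.84). The glucokinase relative EMI2 (0.63) and ACH1 (0.56) rose in Upf1-FLAG, where TDH2 (-0.44), CDC55 (-0.40), a regulatory subunit of a protein phosphatase, and GLN1 (-0.34) fell. Members that fell in DE572AA-FLAG included TDH2 (-0.74), the glutamine synthetase GLN1 (-0.66), the α-factor protease BAR1 (-0.63) and the tubulin TUB1 (-0.61). GLN1 went from 946, 969 and 952 CPM in WT-C to 619, 657 and 686 CPM, with no overlap. Of the 17 amino acid biosynthesis members, 12 fell and 2 rose, GDH1 and BAT1, where 53.7% of eligible non-members and 27.6% of all entries fell.

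BAR1 fell most of all in the strain labelled upf2Δ, from 166, 192 and 188 CPM in WT-C to 5.73, 6.01 and 5.32 CPM (-5.07). BAR1 is expressed in a cells only, and the α-cell genes were high in that strain. The a-cell pheromone gene MFA2 had 0.411 to 0.465 CPM of RNA there against 257 to 266 CPM in WT-C. BAR1 had only 3.33 CPM in total 80S of that strain and is a member through its ratio at that low level. With members kept only if both strains had 50 CPM in total 80S, 134 remained, and 121 of them were higher in the DE572AA-FLAG IP.

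In the N experiment FLAG-Upf1 against WT-N without cycloheximide had 9 members higher and 48 lower (16.8% and 20% of all entries), with a median of -0.13 against -0.10 in eligible non-members. ARO10 rose most (0.87) and BAR1 fell most (-0.65), and FET4 rose by 0.31, from 132 and 157 CPM to 186 and 198 CPM (adjusted p = 0.0049). Leaving out 1 library at a time gave 28 to 41 calls in place of 57. EMI2 (0.43), the permease gene BAP3 (0.41) and ACH1 (0.40) rose, and HO (-0.53), TDH2 (-0.51) and ARO3 (-0.46), an enzyme at the start of aromatic amino acid synthesis, fell. With cycloheximide 7 were higher and 11 lower (8.64% and 5.75% of all entries), 3 to 24 in total when 1 library was left out and 0 when the model held those groups alone. In the 3-plasmid strain 2 were higher and 26 lower (13.5% and 8.95% of all entries), 12 to 22 in total when 1 library was left out and 11 with only the compared groups. BAT1 fell there from 666 and 721 CPM in WT-N to 203 and 195 CPM (-1.88), the direction opposite to that in DE572AA-FLAG against WT-C, and ALD5, a mitochondrial aldehyde dehydrogenase, fell by 1.12 on the log2 scale.

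Total ribosomes on members differed little between DE572AA-FLAG and WT-C. Members had 6 higher and 9 lower (5.41% and 3.87% of all entries), a median log2 change of -0.06, and -0.07 in eligible non-members. Without the third WT-C library 8 members were called in place of 15. ARO10 rose from 14.0, 36.4 and 23.8 CPM to 89.6, 105 and 84.9 CPM (1.58), and BAT1 (1.27), the transporter ERC1 (1.20), ALD5 (1.19), GDH1 (0.70) and ATG42 (0.64) rose too. BAT2, the cytosolic partner of BAT1, fell (-0.65), as did MNN10 (-0.62) and MNN11 (-0.61), which act in the same mannosyltransferase complex of the Golgi. ARO8, ASN1, ASN2, BAR1, DYS1 and VMA2 were the other members that fell.

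For TE in DE572AA-FLAG against WT-C, tested as footprints relative to RNA in one model, 5 members were higher and 0 lower (1.45% and 0.498% of all entries). They were ERC1 (1.04), CDS1 (0.84), a lipid synthesis enzyme, ALD5 (0.84), ELP3 (0.70), a subunit of the tRNA-modifying Elongator complex, and BAT1 (0.60). ERC1 had 51.5, 76.9 and 58.5 CPM in total 80S of WT-C and 151, 188 and 161 CPM in DE572AA-FLAG, while its RNA was 125, 135 and 133 against 144, 176 and 167 CPM. The median log2 change was 0.20 in members, 0.16 in eligible non-members and 0.14 over all entries. The number called was 1 with the lysate as a block and 2 with another scaling, and 3 to 8 when 1 library was left out.

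**Figure D5:**
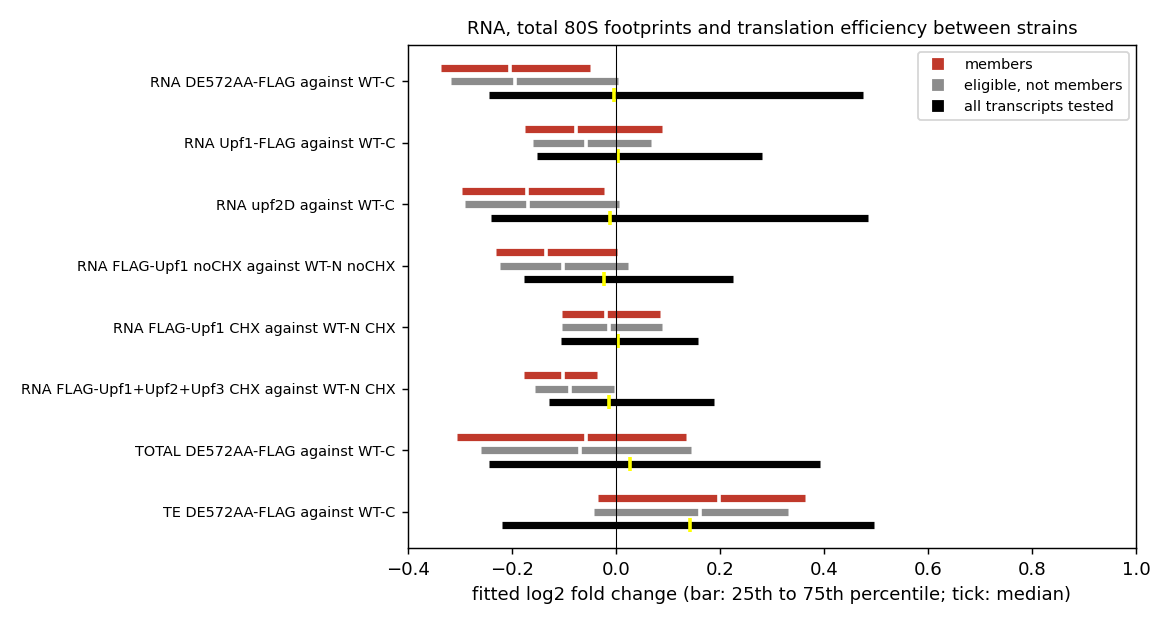
Log2 change (horizontal axis) of RNA, total 80S and TE against the matching wild type for members, eligible non-members and all entries; bars run between quartiles and the tick in each bar is the median. In DE572AA-FLAG RNA the members' median is -0.20 and that of eligible non-members -0.19, and the TE medians are 0.20 and 0.16.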

How the data were processed

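RNA, total 80S footprints and IP footprints were measured in 83 libraries of yeast strains. The authors deposited expected counts per transcript, which need not be whole, and FPKM values, per the file headers. Per the submitters' processing notes, cutadapt, Bowtie and RSEM were used with the R64 (sacCer3) build; versions are not given in the sources used here. Footprint columns hold 1 length class each. The 27-32 nt columns were used with cycloheximide and the 20-32 nt columns without it, and the 37-43 nt columns for long footprints, so a column's total is not a library's whole depth. CPM is the expected count per 1000000 counts of its column, and effective length is the ratio of CPM to FPKM in the first WT-C RNA library. The members and the lists of genes were chosen with earlier results of these data known.

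After rounding of the expected counts to whole numbers, entries were kept with edgeR's filter at a minimum count of 10. Tests were edgeR's quasi-likelihood test (edgeR 4.0.16, limma 3.58.1, R 4.3.3), TMM scaling and Benjamini-Hochberg adjustment over all entries at 0.05, with all groups of an experiment in 1 model per kind of comparison, after a check on data with known changes. The C and N experiments differ in tag position, in plasmids and in the kit for ribosomal RNA removal and were never put in 1 model. Alternatives were RLE scaling, no filter, DESeq2 1.42.0, a lysate or replicate block, only the compared groups, and leaving out 1 library at a time. Sample descriptions and column names give lysate numbers that pair IP, total and RNA of 1 lysate. Deviations of IP and total from the same lysate correlated at -0.0218 to 0.0564. Nothing states that replicates are separate cultures, so p-values measure the spread between these samples, which may be technical. Shares and CPM carry counting error beside the SD. No test of long against standard footprints could be run in the IP of DE572AA-FLAG, and FLAG-Upf1 was used in its place.

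Named genes were the 10 members with the largest and the 5 with the smallest DE572AA-FLAG ratio, the 5 with the highest total 80S level in WT-C, the 3 on either side of the threshold, up to 4 changed genes in each direction in the other comparisons, up to 5 in each N comparison, and members in a list. Others were named after their values were seen. Gene symbols and positions are from RefSeq R64, in which 5966 of 6656 loci were found, some of them without a symbol. No sequence is printed.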

Additional observations from a re-analysis of the deposited data

How the results depend on the processing

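Counts are of members called in either direction, with the value of the main analysis in brackets. Over 213 alternative counts, 152 stayed within 1.5 times of the main value, 13 were higher and 48 lower, and for named genes 1497 kept their call, 5 gained and 143 lost it, with no change of sign among called values. The DE572AA-FLAG count of 126 was 128 with RLE scaling, 122 without a filter, 127 with DESeq2, 130 with the lysate as a block and 133 with only the compared groups. Without a filter FLAG-Upf1 without cycloheximide had 3 (5) and FLAG-Upf3 without it 7 (12). With DESeq2 FLAG-Upf1 had 7 (3) with and 10 (5) without cycloheximide, and RNA had 31 (18) in FLAG-Upf1 with cycloheximide and 46 (28) in the 3-plasmid strain. With only the compared groups the counts were 3 (5) for FLAG-Upf1 and 69 (10) for FLAG-Upf2 without cycloheximide, 94 (14) for FLAG-Upf2 and 53 (20) for FLAG-Upf3 with it, 36 (12) for FLAG-Upf3 without it, 1 (29) in the 3-plasmid strain, 1 (0) for the difference of FLAG-Upf3 and FLAG-Upf1, 0 (18) and 11 (28) for RNA in FLAG-Upf1 and the 3-plasmid strain, 1 (5) for TE and 69 (2) for the length classes; this setting tests fewer entries and estimates the spread from fewer samples. RLE scaling gave 2 (5) for TE. Without FET4 and RTF1, an alternative chosen after seeing the data, FLAG-Upf1 had 1 (3) and 3 (5). Taking TMM factors into the rule's CPM gave 90 members (140), 87 of them among the 140. The cause of the other changes was not tested.

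The lysate number pairs libraries by label, and the block on it gave 5 (3) for FLAG-Upf1 with cycloheximide, 1 (5) for TE and 0 (2) for the length classes; it moved no other count by over 1.5 times. Replicate numbers do not pair strains (correlations of RNA deviations -0.116 to 0.176), and the replicate block gave 95 (92) for RNA in DE572AA-FLAG and 48 (51) in Upf1-FLAG.

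Leaving out 1 library at a time gave 114 to 123 (126) for DE572AA-FLAG, 1 to 3 (3) and 3 to 4 (5) for FLAG-Upf1 with and without cycloheximide, 5 to 7 (14) and 4 to 11 (10) for FLAG-Upf2, 7 to 10 (20) and 3 to 6 (12) for FLAG-Upf3, and 19 to 38 (29) for the 3-plasmid strain. For RNA it gave 81 to 93 (92) in DE572AA-FLAG, 30 to 52 (51) in Upf1-FLAG, 71 to 75 (81) in the strain labelled upf2Δ, 28 to 41 (57) and 3 to 24 (18) in FLAG-Upf1 without and with cycloheximide and 12 to 22 (28) in the 3-plasmid strain. It gave 8 to 15 (15) for total 80S, 3 to 8 (5) for TE and 0 to 3 (2) for the length classes. A lone library left in a group is taken to vary like the other groups. Single members rest on few counts in the 3-plasmid strain, with medians of 15 to 18 in its IP libraries.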
